A study of Mus musculus with 8 samples.

Results

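Autophagy and the lysosome are central to the exocrine pancreas, because acinar cells hold digestive zymogens next to the proteases of the lysosome. Autophagosomes take up cytoplasm and organelles and fuse with lysosomes, where cathepsins break the cargo down. In acute pancreatitis, zymogens and cathepsins can meet in the same compartment, and cathepsin B is best known there as an activator of trypsinogen, while cathepsin L can degrade trypsinogen and trypsin. A set of 10 genes from this system was followed through all libraries: the cathepsins *Ctsb*, *Ctsd*, and *Ctsl*, the lysosomal membrane proteins *Lamp1* and *Lamp2*, the autophagy receptor *Sqstm1*, the ubiquitin-like proteins *Map1lc3b* and *Gabarapl1*, the membrane protein *Vmp1*, and the transcription factor *Tfeb*. They were chosen by name, and each was found once among the 48709 genes with a value in every library.

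Bulk RNA-Seq of pancreas was compared in 4 groups of male mice aged 8 weeks, with 2 biological replicates per group and 8 libraries in all. WT mice were purchased and carried neither a floxed allele nor Cre, and they were not described as littermates of the mutants. cKO mice were *Pfkfb3* fl/fl; *Pdx1*-Cre, a cross in which Cre acts in cells of the *Pdx1* lineage (the pancreatic epithelium) and leaves the gene intact in immune, stromal, and endothelial cells of the organ. Mice of each genotype received saline or palmitoleic acid (POA) with ethanol, the fatty acid ethyl ester model of severe acute pancreatitis (FAEE-SAP), and the FAEE-SAP mice also received buprenorphine. Pancreas was taken 24 hours later.

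The values were RPKM, reads per kilobase of exon, corrected for the reads of the library. A further factor from the median of ratios over genes brought the libraries to one scale, and this scaled RPKM is used below unless the deposited value is named. Library depths worked out from the steps between low values ran from about 22840000 to about 37570000 reads, and the 10 genes had between 49 (*Tfeb*) and 78633 (*Ctsl*) estimated reads in a library. The targeted gene, *Pfkfb3*, had scaled RPKM of 1.70 and 1.69 in WT saline, 0.880 and 2.10 in cKO saline, 1.85 and 3.21 with FAEE-SAP in WT, and 1.74 and 2.82 with FAEE-SAP in cKO. These values overlapped between genotypes, so the level of *Pfkfb3* across its whole gene model gave no check of the genotype labels, and cKO below means the libraries labelled so. Acinar markers were high in every library, but their summed scaled RPKM was 28554 to 38567 with saline, 6546 and 7771 with FAEE-SAP in WT, and 19273 and 18033 with FAEE-SAP in cKO. The summed level of 7 neutrophil markers was 1.28 to 3.67 with saline, 59.4 and 54.1 with FAEE-SAP in WT, and 19.8 and 12.6 with FAEE-SAP in cKO. These marker sums therefore moved with the FAEE-SAP response of each genotype, and with every other contrast that involves the WT FAEE-SAP libraries. In whole tissue, fewer cells of a type and less RNA per cell cannot be told apart.

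Many lysosomal genes carry the palindrome CACGTG, the core of the CLEAR element that TFEB and its relatives bind, so the DNA before the starts of the 10 genes was searched. Windows of 250 bases before to 50 bases after each RefSeq start (GRCm38.p6) were found for 9 of the 10 genes, all but *Ctsb*, with 13 windows in total. Both strands were searched for CACGTG, for its extended form TCACGTGA, which contains CACGTG, and for TGACNNNGC, the core of the antioxidant response element. CACGTG lay in windows of 3 genes, *Ctsd*, *Ctsl*, and *Lamp1*, and in none of the other 6, against 8.09% of all 27025 genes with a window (7.15% of 32851 windows). TCACGTGA lay only in the *Ctsd* window among these 13, against 0.974% of all windows. TGACNNNGC lay in windows of *Ctsd*, *Map1lc3b*, and *Vmp1*, against 13.99% of genes (12.4% of windows). The upstream DNA of 3 genes is shown because *Lamp1* holds 4 copies of CACGTG, whereas *Sqstm1* and *Vmp1*, the pair with the highest correlation across libraries, hold none. Capitals mark matches, and each run is read 5′ to 3′ and ends at the base before the start.

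Lamp1, chr8:13158911-13159160, plus strand: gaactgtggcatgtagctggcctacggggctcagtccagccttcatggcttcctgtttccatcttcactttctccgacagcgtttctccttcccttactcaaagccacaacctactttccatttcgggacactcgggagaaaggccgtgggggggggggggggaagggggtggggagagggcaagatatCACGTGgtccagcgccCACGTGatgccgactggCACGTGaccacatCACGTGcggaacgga
Sqstm1, chr11:50210821-50211070, minus strand: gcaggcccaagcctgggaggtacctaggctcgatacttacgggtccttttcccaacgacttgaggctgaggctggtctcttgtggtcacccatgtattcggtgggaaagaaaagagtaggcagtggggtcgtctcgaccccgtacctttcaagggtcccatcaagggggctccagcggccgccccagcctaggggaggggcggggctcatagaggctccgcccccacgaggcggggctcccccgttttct
Vmp1, chr11:86683837-86684086, minus strand: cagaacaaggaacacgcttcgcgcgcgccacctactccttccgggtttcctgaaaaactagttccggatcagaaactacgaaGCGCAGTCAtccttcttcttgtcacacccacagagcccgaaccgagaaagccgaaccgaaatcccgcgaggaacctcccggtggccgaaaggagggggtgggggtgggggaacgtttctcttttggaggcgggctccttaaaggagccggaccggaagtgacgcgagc

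In *Lamp1* the 4 copies begin at bases -61, -45, -28, and -15 from the start, all close together. The match in *Vmp1*, beginning at base -168, is TGACNNNGC read on the other strand. *Vmp1* has 2 further RefSeq windows, not shown, each with 1 such match, beginning at bases -75 and -156 from their own starts. In *Ctsd* the extended palindrome begins at base -99 (chr7:142387908-142387937, minus strand, with its flanks). The RefSeq start of this window lies 211 bases inside the gene as GENCODE vM21 draws it, so the match lies inside that gene model.

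Ctsd: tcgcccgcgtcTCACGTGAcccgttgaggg

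The single match of *Ctsl* begins at base -236 of a window whose RefSeq start lies 370 bases inside the gene as GENCODE vM21 draws it (chr13:64370740-64370767, minus strand, with its flanks).

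Ctsl: gcgttagaagcCACGTGctgatctaaat

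These letters describe the windows and are not evidence of binding.

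*Cathepsins.* Of the 10 genes, *Ctsl* had the highest level per length in every group, and it was the only one that changed by the criteria used here, a difference of at least 2-fold with an adjusted p under 0.05 (limma, Benjamini-Hochberg adjustment over all genes tested). *Ctsl* encodes cathepsin L, a cysteine protease, and lies at chr13:64359337-64370890 on the minus strand. Its scaled RPKM was 99.7 and 63.4 in WT saline, 70.2 and 116 in cKO saline, 220.1 and 192 with FAEE-SAP in WT, and 173 and 224 with FAEE-SAP in cKO. All 4 FAEE-SAP libraries lay above all 4 saline libraries, and the genotypes overlapped under both treatments. In WT the mean rose from 81.5 ± 25.6 to 206 ± 19.8 (SD, n = 2 each), 2.58-fold (log2 1.37 ± 0.24 SE, adjusted p = 0.0329). In cKO the means were 93.1 ± 32.4 and 198 ± 35.8 (SD, n = 2 each), a 2.18-fold difference that was not called (log2 1.12 ± 0.31 SE, adjusted p = 0.423). The difference between the WT and cKO responses was -0.25 on the log2 scale with a 95% interval of -1.26 to 0.76 (adjusted p = 0.847), so the responses were not shown to differ. The call in WT was close to the threshold: it was lost without WT saline replicate 2 (adjusted p = 0.0698), without WT FAEE-SAP replicate 1 (0.105), and without WT FAEE-SAP replicate 2 (0.150), although the log2 difference stayed between 1.04 and 1.70. It was also lost without a filter on low values (adjusted p = 0.0767) and in limma without the intensity trend (0.0561). Exons of *Ctsl* overlap the antisense gene *Gm47123* over 26.8% of their length and a processed pseudogene, *Gm49230*, over 6.09%, and whether reads were counted by strand was not given in the sources used here.

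*Ctsb* encodes cathepsin B (chr14:63122462-63145923, plus strand) and had the tightest replicates of the cathepsins in WT. Scaled RPKM was 14.3 and 15.1 in WT saline, 16.1 and 13.1 in cKO saline, 23.0 and 21.9 with FAEE-SAP in WT, and 25.1 and 21.8 with FAEE-SAP in cKO. As with *Ctsl*, every FAEE-SAP library was higher than every saline library. The difference was 1.52-fold in WT (log2 0.61 ± 0.16 SE, adjusted p = 0.0750) and 1.61-fold in cKO (log2 0.68 ± 0.21 SE, adjusted p = 0.435), and neither was called. With FAEE-SAP, cKO and WT differed by 0.06 on the log2 scale with a 95% interval of -0.38 to 0.50. Macrophages also hold much cathepsin mRNA, and the summed scaled RPKM of 9 macrophage markers was 77.6 and 94.6 in WT saline, 91.2 and 87.3 in cKO saline, 97.7 and 73.0 with FAEE-SAP in WT, and 128 and 112 with FAEE-SAP in cKO. These sums overlapped between WT FAEE-SAP and WT saline and were higher in cKO FAEE-SAP than in cKO saline, and their part in the cathepsin levels was not tested.

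*Ctsd* encodes cathepsin D, an aspartic protease that processes other lysosomal enzymes (chr7:142375911-142388038, minus strand). It had the next highest level after *Ctsl* in every group and the smallest treatment differences of the 3 cathepsins, with scaled RPKM of 48.0 and 40.9 in WT saline, 50.4 and 46.1 in cKO saline, 55.4 and 49.4 with FAEE-SAP in WT, and 44.5 and 57.3 with FAEE-SAP in cKO. The WT FAEE-SAP libraries lay only just above the WT saline libraries (log2 0.24 ± 0.17 SE, adjusted p = 0.411), and the other contrasts overlapped. Exons of *Ctsd* share 34.4% of their length with the same-strand gene model *Gm49369*, so part of its reads could have been assigned to either gene. The ratio of deposited *Ctsl* to *Ctsd* within a library, which no scaling can change, was 2.08 and 1.55 in WT saline, 1.39 and 2.52 in cKO saline, 3.98 and 3.89 with FAEE-SAP in WT, and 3.89 and 3.90 with FAEE-SAP in cKO. The 4 FAEE-SAP libraries were thus nearly identical in this ratio whatever the genotype, whereas the 4 saline libraries were spread and all lower.

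**Figure D1:**
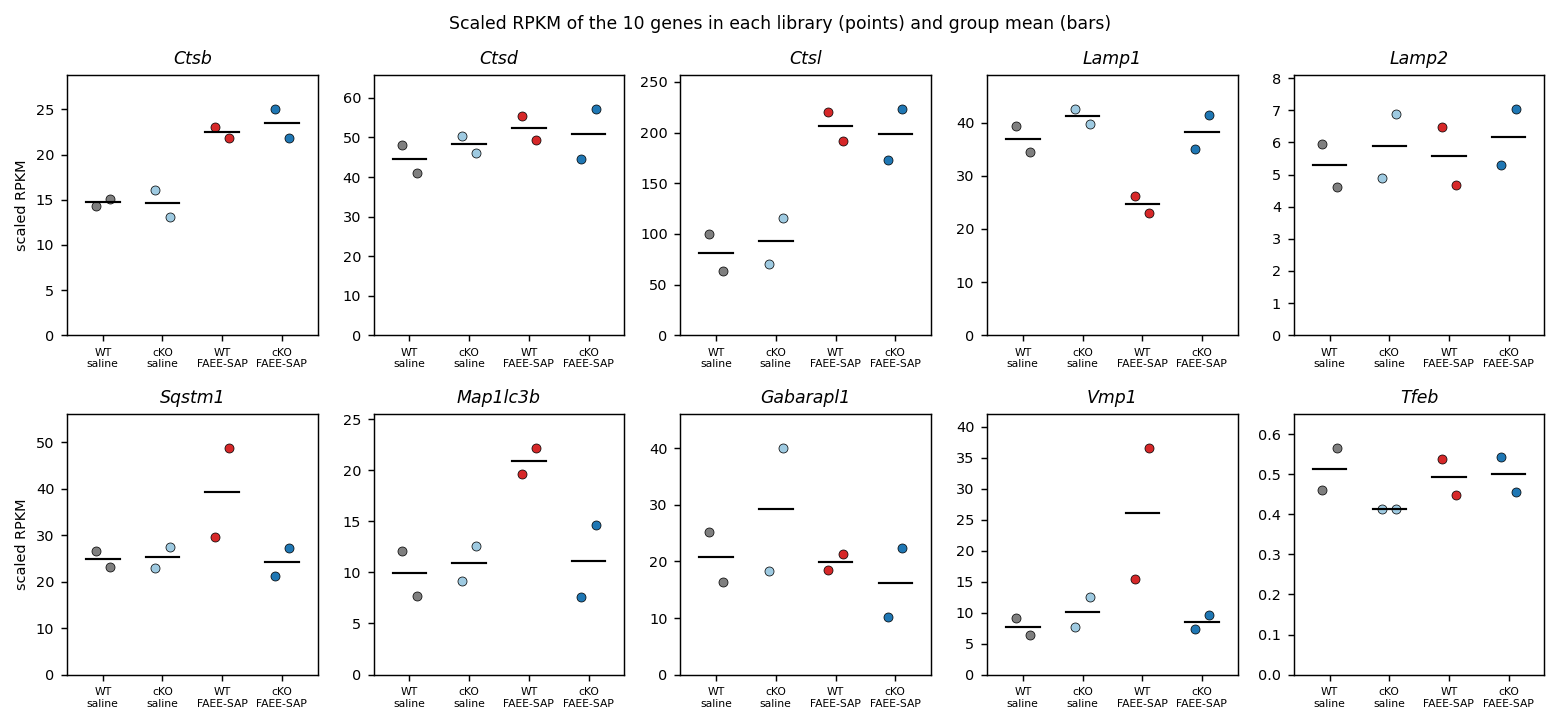
Scaled RPKM (vertical axes, linear, from 0) of each of the 10 genes in the 4 groups on the horizontal axes; points are single libraries and horizontal bars are means of 2 libraries. *Ctsl* and *Ctsb* are higher in all FAEE-SAP libraries, *Lamp1* is lowest and *Map1lc3b* and *Vmp1* are highest in WT FAEE-SAP, *Lamp2* overlaps between all groups, and *Tfeb* lies at 0.414 in both cKO saline libraries, below the other 6.

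*Lysosomal membrane.* *Lamp1* and *Lamp2* encode the abundant glycoproteins that line the lysosomal membrane, and LAMP2 is also needed for fusion with autophagosomes and for chaperone-mediated autophagy. *Lamp1* (chr8:13159161-13175338, plus strand) had scaled RPKM of 39.4 and 34.4 in WT saline, 42.6 and 39.7 in cKO saline, 26.2 and 23.0 with FAEE-SAP in WT, and 34.96 and 41.5 with FAEE-SAP in cKO. The WT FAEE-SAP libraries were the lowest of the 8 and did not overlap any other group. The difference from WT saline was log2 -0.58 ± 0.17 SE (adjusted p = 0.0940), and cKO exceeded WT with FAEE-SAP by log2 0.63 ± 0.19 SE (adjusted p = 0.167), 1.55-fold. Neither passed the test. Both signs depended on scaling, since as deposited the WT difference was 0.73 and the genotype difference -0.34, beside shifts of 1.24 and -0.91 in the medians of all genes tested. Setting the deposited values against those medians repeats the scaling, so it gives no separate check of the signs. Exons of *Lamp1* overlap *Grtp1*, on the opposite strand, over 9.31% of their length.

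*Lamp2* (chrX:38401357-38456454, minus strand) ranged only from 4.62 to 7.05 scaled RPKM over the 8 libraries, and the groups overlapped in every comparison. Its log2 difference was 0.07 in WT with a 95% interval of -0.54 to 0.68, and 0.07 in cKO with an interval of -0.61 to 0.76.

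*Autophagy receptor, LC3 and GABARAP proteins, and Vmp1.* For *Sqstm1*, *Map1lc3b*, and *Vmp1* the high libraries were those of WT FAEE-SAP, and none of their differences met the criteria. *Sqstm1* encodes the receptor that links ubiquitinated cargo to the autophagosome and that binds KEAP1 (chr11:50199366-50210827, minus strand). Its scaled RPKM was 26.5 and 23.1 in WT saline, 22.9 and 27.5 in cKO saline, 29.7 and 48.8 with FAEE-SAP in WT, and 21.3 and 27.2 with FAEE-SAP in cKO. One of the WT FAEE-SAP libraries stood well above all others, while the second lay just above the saline range. The log2 difference in WT was 0.62 ± 0.26 SE (adjusted p = 0.199) and dropped to 0.27 without WT FAEE-SAP replicate 2 (adjusted p = 0.540). With FAEE-SAP, cKO against WT was -0.66 ± 0.29 SE (adjusted p = 0.280), and -0.30 without that library. In cKO the treatment difference was -0.06, with a 95% interval of -0.63 to 0.51.

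*Map1lc3b* encodes LC3B, the ubiquitin-like protein that is joined to lipid on the growing autophagosome (chr8:121590361-121598760, plus strand). Its scaled RPKM was 12.1 and 7.73 in WT saline, 9.15 and 12.6 in cKO saline, 19.7 and 22.2 with FAEE-SAP in WT, and 7.59 and 14.7 with FAEE-SAP in cKO. Here both WT FAEE-SAP libraries were above all 6 others, and the cKO FAEE-SAP libraries spanned the saline range. The WT difference was 2.14-fold (log2 1.10 ± 0.25 SE, adjusted p = 0.0569), just short of the threshold. It passed under quantile normalization (adjusted p = 0.0405) and with a minimum RPKM of 2 (adjusted p = 0.0460), whereas with 1 library left out the log2 difference ran from 0.78 (without WT saline replicate 2) to 1.43, with adjusted p from 0.0560 to 0.239. The cKO difference was log2 -0.02 ± 0.38 SE, with FAEE-SAP cKO was lower than WT by log2 -0.98 ± 0.33 SE (adjusted p = 0.198; -0.50 without cKO FAEE-SAP replicate 1), and the difference between the responses was -1.13 ± 0.50 SE (adjusted p = 0.419). That difference between the responses ran from -1.60 to -0.64 when 1 library was left out.

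*Gabarapl1*, a GABARAP family member that serves later steps of autophagosome formation and closure (chr6:129533160-129542346, plus strand), did not follow *Map1lc3b*. Its scaled RPKM was 25.2 and 16.3 in WT saline, 18.3 and 40.1 in cKO saline, 18.4 and 21.4 with FAEE-SAP in WT, and 10.1 and 22.4 with FAEE-SAP in cKO. Replicates differed by 2.19-fold in cKO saline and 2.21-fold in cKO FAEE-SAP, more than any group means did. The log2 difference was -0.03 in WT (95% interval -0.64 to 0.58) and -0.84 ± 0.54 SE in cKO (adjusted p = 0.627). In cKO it ran from -1.42 to -0.27 when 1 library was left out. The ratio of deposited *Gabarapl1* to *Map1lc3b* separated treatments more cleanly than either gene: 2.08 and 2.11 in WT saline, 2.003 and 3.18 in cKO saline, 0.938 and 0.964 with FAEE-SAP in WT, and 1.34 and 1.53 with FAEE-SAP in cKO. All FAEE-SAP libraries were below all saline libraries, and the cKO FAEE-SAP libraries fell between WT FAEE-SAP and saline. *Gabarapl1* exons overlap the opposite-strand transcript *1700101I11Rik* over 28.3% of their length.

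*Vmp1* encodes a membrane protein of the endoplasmic reticulum that is needed to form autophagosomes and that was first described as a gene induced in pancreatitis (chr11:86583865-86683836, minus strand). Its scaled RPKM was 9.17 and 6.32 in WT saline, 7.70 and 12.6 in cKO saline, 15.4 and 36.6 with FAEE-SAP in WT, and 7.41 and 9.60 with FAEE-SAP in cKO. The WT FAEE-SAP libraries were the highest, but they differed from each other by 2.38-fold. The WT difference, 3.09-fold, was the largest of the 10 genes (log2 1.63 ± 0.43 SE) and was not called (adjusted p = 0.0761). It was 1.02 without WT FAEE-SAP replicate 2 (adjusted p = 0.210) and 2.26 without WT FAEE-SAP replicate 1 (adjusted p = 0.0447). In cKO the difference was log2 -0.22 with a 95% interval of -1.01 to 0.57. With FAEE-SAP, cKO was lower than WT by log2 -1.48 ± 0.42 SE (adjusted p = 0.160), and -0.86 without WT FAEE-SAP replicate 2. This genotype difference was called as deposited (log2 -2.45, beside -0.91 over all genes). It was also called in limma with the replicate number as a block (adjusted p = 0.0211), although that number was not stated to pair mice. The difference between the responses was -1.85 ± 0.61 SE (adjusted p = 0.313), and this was the only one of the 10 genes with an unadjusted p under 0.05 for that difference. An exon of *Vmp1* overlaps the microRNA gene *Mir21a*, on the same strand, over 2.38% of the exonic length.

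**Figure D2:**
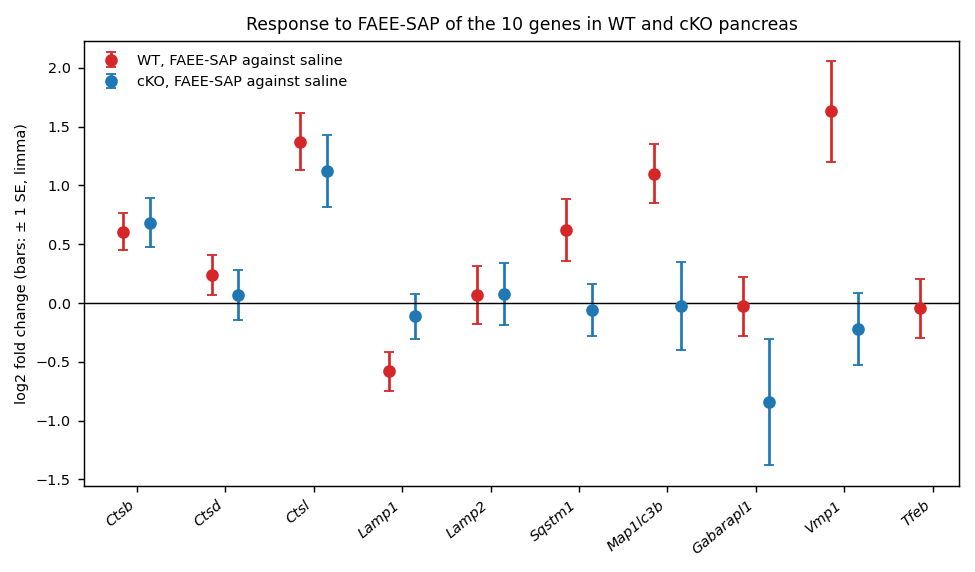
Log2 fold change (vertical axis) of FAEE-SAP against saline for each of the 10 genes (horizontal axis) in WT (red) and cKO (blue); points are limma estimates from 2 against 2 libraries and bars are ± 1 SE. *Ctsl* and *Ctsb* are positive in both genotypes, *Vmp1*, *Map1lc3b*, and *Sqstm1* are positive in WT and near 0 in cKO, and *Tfeb* has no cKO value because it was below the RPKM minimum there.

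*Tfeb.* The transcription factor EB drives lysosomal and autophagy genes once it enters the nucleus, a step that mRNA does not report (chr17:47737030-47792419, plus strand). *Tfeb* had by far the lowest level of the set, 0.414 to 0.566 scaled RPKM over the 8 libraries, from 49 to 160 estimated reads. Both cKO saline libraries were at 0.414, below the other 6. It was tested in WT, where the log2 difference was -0.05 with a 95% interval of -0.67 to 0.58, and between genotypes with FAEE-SAP, where it was 0.01 with an interval of -0.63 to 0.66. The RPKM minimum applies to deposited values, which for *Tfeb* were 0.336 and 0.490 in WT saline and 1.09 and 0.867 in WT FAEE-SAP, so in WT it was tested only through the FAEE-SAP libraries. It did not reach the minimum for the other pairwise comparisons.

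*The 10 genes against all genes tested.* For the response of WT mice, 1 of the 10 genes was called, beside 6.89% of 10894 genes, and 5 had an unadjusted p under 0.05 (4 higher, 1 lower), beside 27.8%. The libraries did not overlap for 6 genes that were higher and 1 that was lower in WT FAEE-SAP, beside 29.7% and 29.1% of all genes. The median log2 difference was 0.42 over the 10 genes and 0.02 over all genes. In cKO, 9 of the 10 genes were tested and 0 were called, beside 0.0531% of 9423 genes, and 2 had an unadjusted p under 0.05 (*Ctsb* and *Ctsl*, both higher), beside 9.56%. The same 2 had libraries that did not overlap, beside 19.6% of genes higher without overlap. The cKO median was -0.02 over the 9 genes and -0.04 over all genes.

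Between cKO and WT with saline, limma called 0 of the 9 genes tested and 0% of all 8715 genes, and 0 of the 9 had an unadjusted p under 0.05, beside 2.27%. The largest difference among them was 0.42 on the log2 scale, for *Gabarapl1*, with a 95% interval of -0.71 to 1.54. It was -0.15 without cKO saline replicate 2. Between cKO and WT with FAEE-SAP, 0 of 10 genes were called, beside 1.17% of 11008 genes, and 3 had an unadjusted p under 0.05 (*Lamp1* higher, *Map1lc3b* and *Vmp1* lower in cKO), beside 19.6%. Libraries did not overlap for 1 gene higher and 3 lower in cKO, beside 26.5% and 25.3% of all genes. For the difference between the 2 responses, 0 of 10 genes were called, beside 0.0719% of 11133 genes, and 1 had an unadjusted p under 0.05, beside 12.6%. The WT FAEE-SAP libraries enter the WT response, the genotype comparison with FAEE-SAP, and the difference between responses alike, so these comparisons are not independent of each other. In WT FAEE-SAP the acinar marker sums were lower and the neutrophil sums higher than in every other group, and their part in the differences of *Vmp1*, *Map1lc3b*, *Sqstm1*, and *Lamp1* was not tested.

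*Ratios within a library.* Because the scaling factors of the WT FAEE-SAP libraries were the farthest from 1 (2.02 and 1.94, beside 0.621 to 1.05 in the other 6), ratios to *Lamp1* within each library were also taken. *Vmp1* to *Lamp1* was 0.233 and 0.184 in WT saline, 0.181 and 0.317 in cKO saline, 0.588 and 1.59 with FAEE-SAP in WT, and 0.212 and 0.231 with FAEE-SAP in cKO. *Map1lc3b* to *Lamp1* was 0.308 and 0.225, 0.215 and 0.317, 0.750 and 0.966, and 0.217 and 0.354 in the same order. *Sqstm1* to *Lamp1* was 0.673 and 0.671, 0.537 and 0.692, 1.13 and 2.12, and 0.608 and 0.656. For these 3 genes both WT FAEE-SAP libraries lay above the other 6, and the cKO FAEE-SAP libraries lay at the saline values or slightly above them. *Ctsl* to *Lamp1* behaved differently, with 1.65 to 2.92 with saline, 8.39 and 8.36 with FAEE-SAP in WT, and 4.95 and 5.39 with FAEE-SAP in cKO. *Ctsd* to *Lamp1* was 1.16 to 1.22 with saline, 2.11 and 2.15 with FAEE-SAP in WT, and 1.27 and 1.38 with FAEE-SAP in cKO. A ratio moves with either gene, and *Lamp1* itself was lower in WT FAEE-SAP after scaling.

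**Figure D3:**
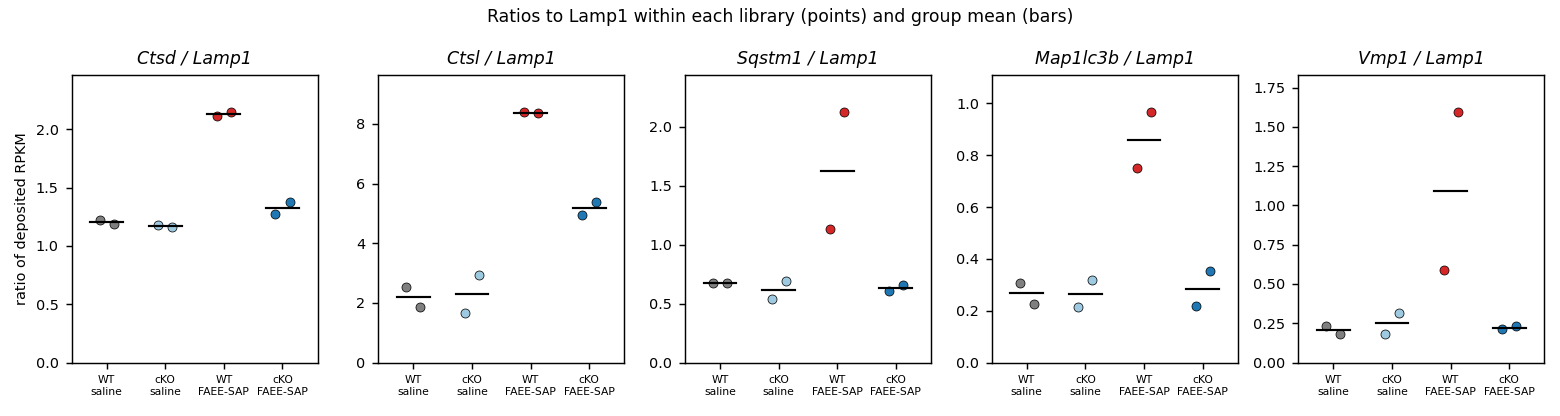
Ratio of the deposited RPKM of 5 genes to that of *Lamp1* in the same library (vertical axes, linear, from 0) in the 4 groups (horizontal axes); points are libraries and bars are means of 2. The WT FAEE-SAP libraries are the highest in every panel, and the cKO FAEE-SAP libraries exceed the saline libraries clearly for *Ctsl* and little or not at all for *Sqstm1*, *Map1lc3b*, and *Vmp1*.

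*Order and likeness of the members.* In every group *Ctsl* and *Ctsd* had the highest mean scaled RPKM, and *Lamp2* and *Tfeb* the lowest. *Lamp1* was in the third place in WT saline (36.9 ± 3.53), cKO saline (41.2 ± 2.05), and cKO FAEE-SAP (38.2 ± 4.62; SD, n = 2 each), and in the fifth in WT FAEE-SAP (24.6 ± 2.29), although in cKO saline it overlapped the next gene, *Gabarapl1*. In WT FAEE-SAP *Sqstm1*, *Vmp1*, *Lamp1*, *Ctsb*, and *Map1lc3b* each overlapped the next gene in the order, down to *Gabarapl1*, so the order of these genes was not resolved, while *Gabarapl1* did not overlap *Lamp2*. Over the 8 libraries, which share genotype and treatment in pairs and are not 8 independent conditions, Pearson's r of log2 values was 0.97 for *Sqstm1* and *Vmp1*, 0.88 for *Map1lc3b* and *Vmp1*, 0.87 for *Sqstm1* and *Map1lc3b*, 0.79 for *Ctsb* and *Ctsl*, and -0.78 for *Lamp1* and *Vmp1*. *Gabarapl1* and *Map1lc3b*, of related families, reached only 0.44. Among 11132 other genes, the one most like each member was *Mul1* for *Vmp1* (r = 0.9897), *Grpel1* for *Map1lc3b* (0.996), *Tmem87a* for *Sqstm1* (0.992), *Atg4d* for *Gabarapl1* (0.969), *Cs* for *Lamp1* (0.993), *Ghdc* for *Lamp2* (0.954), *Atp6v0c* for *Ctsl* (0.977), *Medag* for *Ctsb* (0.979), *Trappc2l* for *Ctsd* (0.898), and *H2-Oa* for *Tfeb* (0.985). *Atp6v0c* encodes a subunit of the proton pump that acidifies lysosomes, and *Atg4d* a protease of the LC3 and GABARAP family. Each of these genes was picked as the highest of 11132 values over 8 libraries.

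*Other genes of the pathway.* Beside the 10 genes, 12 lists of lysosomal and autophagy genes held 202 genes, of which 179 were tested in WT. Of these, 2 rose and 4 fell in WT FAEE-SAP, 3.35% against the 6.89% of all genes, and 43 had an unadjusted p under 0.05, beside 27.8% of all genes. In the other comparisons limma called 0 in the cKO response, 0 between genotypes with saline, 0 between genotypes with FAEE-SAP, and 0 for the difference between responses, where 11 of 170, 2 of 167, 24 of 178, and 24 of 179 had an unadjusted p under 0.05, beside 9.56%, 2.27%, 19.6%, and 12.6% of all genes. The 2 that rose belong to the list of other cathepsins and lysosomal endopeptidases (12 tested). *Lgmn*, which encodes legumain, the asparaginyl endopeptidase that processes cathepsins, had scaled RPKM of 3.15 and 5.29 in WT saline and 12.5 and 12.6 in WT FAEE-SAP (log2 1.60 ± 0.27 SE, adjusted p = 0.0310), and its cKO difference was 1.80 ± 0.22 SE (adjusted p = 0.157). *Ctse*, cathepsin E, rested on 4 and 3 estimated reads in WT saline and 44 and 57 in WT FAEE-SAP (log2 1.38 ± 0.28 SE, adjusted p = 0.0423). It reached the RPKM minimum only through the FAEE-SAP libraries, where it is high, so its call does not support the count. The call was lost under quantile normalization (adjusted p = 0.117), without a filter (0.0704), and with a pseudocount of 0.01 (0.0662), and with a pseudocount of 1 the log2 difference was 0.30.

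The 4 that fell act in inhibition, degradation, and sorting. *Cst3*, the secreted cathepsin inhibitor cystatin C, had 138 and 129.98 scaled RPKM in WT saline, 50.9 and 45.1 with FAEE-SAP in WT, and 83.8 and 90.5 with FAEE-SAP in cKO (WT log2 -1.48 ± 0.15 SE, adjusted p = 0.00767). The cKO FAEE-SAP libraries lay between the WT FAEE-SAP and the saline libraries. *Glb1*, lysosomal beta-galactosidase, fell by 1.62 on the log2 scale in WT (adjusted p = 0.0114), and *Aga*, aspartylglucosaminidase, by 1.43 (adjusted p = 0.0266). *Gnptg*, a subunit of the enzyme that marks lysosomal hydrolases for sorting, fell by 1.27 (adjusted p = 0.0279). As deposited, the WT differences of these 4 genes were -0.16, -0.35, -0.22, and -0.01, and none was called. With a pseudocount of 1 the WT differences of *Aga* (-0.85) and *Gnptg* (-0.90) were under 2-fold and not called. Without WT FAEE-SAP replicate 2 *Lgmn* (adjusted p = 0.163), *Cst3* (0.0730), *Glb1* (0.0766), *Aga* (0.123), and *Gnptg* (0.135) missed the adjusted threshold, and *Aga* and *Gnptg* did so without any 1 of the 4 libraries. Without a filter on low values *Lgmn* (0.0703), *Aga* (0.0668), and *Gnptg* (0.0614) were not called, and with the replicate number as a block *Ctse* (0.0955), *Aga* (0.0504), and *Gnptg* (0.0524) were not. *Lgmn* also missed it without WT saline replicate 1 (adjusted p = 0.0778) or WT FAEE-SAP replicate 1 (0.0957), and *Glb1* without WT saline replicate 1 (0.0715).

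The list of 32 lysosomal hydrolases had medians opposite in sign to the *Vmp1* differences in WT and between genotypes with FAEE-SAP. In WT 23 of 32 were negative and the median was -0.23, beside 0.02 over all genes, but as deposited the median was 1.06, beside 1.24. Of the 32 genes, 2 were called lower in WT, beside 6.89% of all genes called. There 6 had an unadjusted p under 0.05, all lower, beside 27.8%. In cKO 21 of 31 were positive with a median of 0.13, beside -0.04 over all genes. With an unadjusted p under 0.05, 2 were higher and 1 was lower in cKO, beside 9.56% of all genes. With FAEE-SAP 28 of 32 had a positive cKO against WT difference (median 0.41, beside 0.00 over all genes; 7 had an unadjusted p under 0.05, all higher, beside 19.6% of all genes), but as deposited 3 of 32 were positive and the median was -0.50, beside -0.91 over all genes. For the difference between responses 29 of 32 were positive, with a median of 0.49, which turned to -0.16 as deposited, beside -0.63 over all genes. For that difference 9 of 32 had an unadjusted p under 0.05, all higher, beside 12.6% of all genes, and 0 were called, beside 0.0719%. In the genotype comparison with FAEE-SAP the medians of acinar (1.27; 5 of 6 with an unadjusted p under 0.05), islet (1.30; 5 of 5), endothelial (0.78; 3 of 5), and macrophage markers (0.72; 5 of 9) were also positive, and their part in the hydrolase values was not tested. The list of *Atg9*, *Atg2*, and WIPI genes, which supply lipid to the growing autophagosome, had 0 genes called by limma in every comparison, with a median of 0.47 in WT (7 of 8 positive, and 4 of 8 with an unadjusted p under 0.05, beside 27.8% of all genes), -0.18 in cKO (0.44 as deposited, beside 0.57 over all genes), and -0.44 for cKO against WT with FAEE-SAP (7 of 8 negative, and 3 of 8 with an unadjusted p under 0.05, beside 19.6%). Neutrophil markers had a median of 3.33 in WT and -1.62 for cKO against WT with FAEE-SAP (6 tested in each). Only 1 of the 7 was tested between genotypes with saline. The others needed FAEE-SAP libraries, where they are high, to reach the RPKM minimum, so the filter favored these signs. Adipocyte markers had medians of 0.57 and -0.92 in the same order. The part of these 2 marker lists in the values of the *Atg9*, *Atg2*, and WIPI list was not tested. Within the list, *Atg2a*, singled out after its values were seen, had scaled RPKM of 3.61 and 1.77 in WT saline, 1.61 and 4.42 in cKO saline, 7.06 and 14.3 with FAEE-SAP in WT, and 1.47 and 3.66 with FAEE-SAP in cKO. Its WT difference was log2 1.94 ± 0.45 SE (adjusted p = 0.0582), and with FAEE-SAP cKO against WT was -2.06 ± 0.51 SE (adjusted p = 0.131). The ULK and PI3K initiation complexes had medians of 0.16 in WT, -0.21 in cKO, and -0.12 for that genotype difference, beside 0.02, -0.04, and 0.00 over all genes. In the genotype difference 11 of 13 genes were negative, 0 were called, and 2 had an unadjusted p under 0.05, beside 19.6%. Over the remaining 9 lists, medians ran from -0.33 (mannose-6-phosphate and sortilin sorting) to 0.36 (cystatins, 3 genes tested) in WT, from -0.26 (MiT/TFE factors, Rag GTPases, and mTORC1) to 0.31 (other cathepsins) in cKO, and from -0.17 (other LC3 and GABARAP genes) to 0.21 (other cathepsins) for cKO against WT with FAEE-SAP. Of the 3 cystatins, *Cst7* was not tested with saline or in cKO, so in WT it needed FAEE-SAP libraries to reach the RPKM minimum. With an RPKM minimum of 2 the cystatin median in WT was -0.56 (2 genes tested), and *Cst3*, the only cystatin called, fell. A list of 9 genes of KEAP1 and NRF2, the pathway that *Sqstm1* joins, had 2 genes that rose in WT, beside 6.89% of all genes called in either direction: *Hmox1*, which encodes heme oxygenase (log2 2.09 ± 0.22 SE, adjusted p = 0.00884), and *Srxn1*, which encodes sulfiredoxin (1.41 ± 0.29 SE, adjusted p = 0.0453), and 0 called in cKO, beside 0.0531%, where their differences were 1.63 and 0.91 (adjusted p = 0.229 and 0.433) and 3 of 8 genes of the list had an unadjusted p under 0.05, beside 9.56%. The WT call of *Srxn1* was lost with a pseudocount of 1 (log2 0.84, adjusted p = 0.0544) and in limma without the trend (0.0542). *Hmox1* missed the threshold without WT FAEE-SAP replicate 2 (adjusted p = 0.0653) and *Srxn1* without any 1 of the 4 libraries, without a filter (0.0938), and with the replicate block (0.0722).

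**Figure D4:**
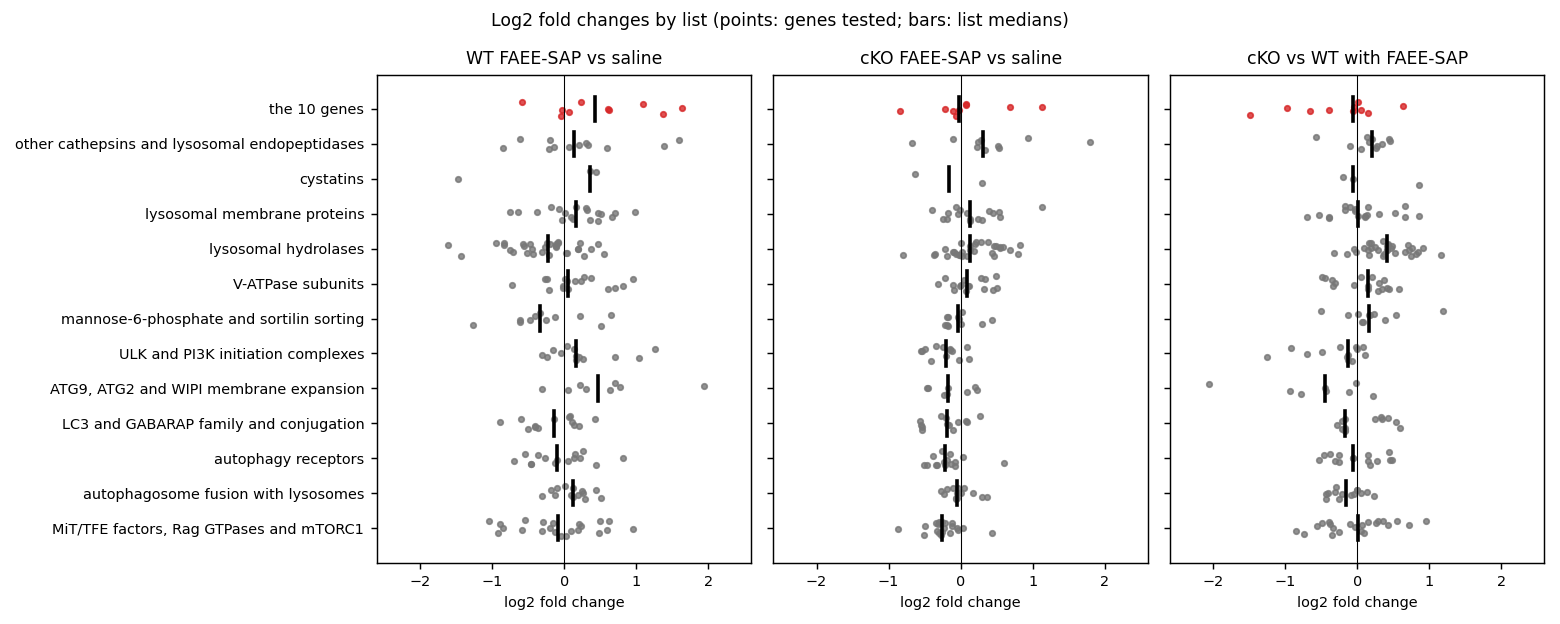
Log2 fold change (horizontal axes) of each tested gene of the 10 (red) and of the 12 lists (grey) for the response to FAEE-SAP in each genotype (left and middle panels) and for cKO against WT under FAEE-SAP (right panel); points are genes, offset vertically at random, and black bars are medians. In the right panel the bar of the lysosomal hydrolases lies at 0.41 and that of the ATG9, ATG2, and WIPI list at -0.44.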

How the data were processed

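For each library the authors deposited RPKM for 48709 genes. Reads came paired-end from a strand-preserving kit, passed fastp, and were mapped by CLC Genomics Workbench to Ensembl GRCm38.p6, per their methods, and how reads were counted was not given in the sources used here. Libraries were grouped by their GEO labels. The p-values measure the spread between 2 biological replicates per group.

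Depth was estimated from the steps between RPKM values under 20 reads, of which 84.5% to 85.8% came out whole within 0.1 read in a library, so read numbers are approximate. RPKM was scaled by the median of ratios over all 8 libraries, and log2(scaled RPKM + 0.1) was tested with limma 3.58.1 (R 4.3.3, intensity trend) in the 4 libraries of a comparison, or all 8 for the difference between responses. The pseudocount of 0.1 shrinks differences of low genes. Genes needed a deposited RPKM of 0.5 in 2 libraries of the comparison. A gene was called at a Benjamini-Hochberg adjusted p under 0.05 over all genes tested and a 2-fold difference, the fold used in the study. The scripts were tested on simulated data.

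The 10 genes and all lists were chosen with earlier results of these data known. Genes named from lists were up to 3 called per list and comparison with the largest differences, plus the gene most like each member. Outside this rule, *Atg2a* was singled out after its values were seen, and *Cst7* was named because of the filter. Positions are GENCODE vM21 on GRCm38, matched by symbol for 95.1% of genes, and promoter windows are from RefSeq. Alternatives were other scalings, filters, pseudocounts, fits, thresholds, a replicate block, and leaving out each library.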

Additional observations from a re-analysis of the deposited data

How the results depend on the processing

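Over the 10 genes and all comparisons, 685 of 735 recomputed values kept their direction and their side of the threshold, 17 newly passed, 5 no longer passed, 6 reversed, and 22 moved beyond the spread, where a scaled difference smaller than its SE was taken to have no direction unless the alternative called it. The other filters, the fit without the trend, the model of all 8 libraries, and the replicate block leave the log2 difference itself unchanged. Most of the values were also not called to begin with, so the share kept is no measure of robustness. The cause of each change was not tested. RPKM as deposited gave the most: the median of all genes shifted by 1.24 in WT and -0.63 for the difference between responses, and in WT *Lamp1* changed sign (0.73), while *Gabarapl1* (1.28) and *Tfeb* (1.08), near 0 in the scaled data, were called higher. *Lamp1* also changed sign with FAEE-SAP (-0.34) and for the difference between responses (-0.19, smaller than its SE). It called 7270 genes in WT (7184 higher, 86 lower, beside 339 and 412 in the scaled data) with 9 of the 10, 15 in cKO, 2 between genotypes with saline, 4427 with FAEE-SAP (73 higher, 4354 lower, beside 90 and 39) with 6 of the 10, and 791 for the difference between responses with 1 of the 10. *Gabarapl1* with FAEE-SAP ran from -0.97 to 0.18 when 1 library was left out.

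Counts of all genes called in WT were 269 without a filter, 431 with a pseudocount of 1, and 1298 by unadjusted p, and 82 to 374 with 1 library left out. Of the 10 genes in WT, 2 were called under quantile normalization, 2 with an RPKM minimum of 2, 3 by unadjusted p, 0 without a filter, 0 without the trend, and 0 to 1 with 1 library left out. In cKO the counts were 0 without a filter, 16 in the model of all 8 libraries, 288 by unadjusted p (1 of the 10), and 0 to 5 with 1 library left out. With saline they were 1 under quantile normalization (0 higher, 1 lower) and 68 by unadjusted p. With FAEE-SAP they were 81 under quantile normalization (44 higher, 37 lower), 0 without a filter, 43 without the trend, 296 in the model of all 8 libraries, 887 by unadjusted p (1 of the 10), and 0 to 94 with 1 library left out. For the difference between responses they were 25 under quantile normalization, 0 without a filter, 15 with an RPKM minimum of 2, 24 and 1 with pseudocounts of 1 and 0.01, 3 without the trend, 782 by unadjusted p (1 of the 10), and 0 to 4 with 1 library left out.

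Replicate numbers were not stated to pair mice, and the correlation of same-numbered deviations was -0.18 in WT, 0.45 in cKO, -0.39 with saline, and 0.31 with FAEE-SAP. With the number as a replicate block, 533 genes were called in WT, 136 in cKO, 0 with saline, 717 with FAEE-SAP (1 of the 10, *Vmp1*, adjusted p = 0.0211), and 0 for the difference between responses. Crossed numbers, added after seeing the data, gave 1110 in WT (3 of the 10) and 2 with saline.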
